A study of Mus musculus with 16 samples.

Results

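The genes described here encode the chemosensory receptors of the nose, the vomeronasal organ and the tongue, read in whole mouse liver. They were all genes whose symbol begins with Olfr, Vmn1r, Vmn2r, Tas1r or Tas2r and whose probe was marked well above its local background by the scanner software on at least 8 of 16 arrays. Of 1364 such genes on the array, carried by 1488 probes, 256 met this rule: 216 of 1070 Olfr, 15 of 166 Vmn1r, 17 of 90 Vmn2r, 6 of 35 Tas2r and 2 of 3 Tas1r genes. They were 256 of the 25789 features tested, 252 of them protein coding and 4 transcribed pseudogenes.

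Olfactory receptors (Olfr) are G protein-coupled receptors of the main olfactory epithelium, where a mature sensory neuron typically expresses a single receptor gene and signals through the G protein subunit Gnal, the adenylyl cyclase Adcy3 and a cyclic nucleotide-gated channel. Vmn1r and Vmn2r encode the pheromone receptors of the vomeronasal organ, Tas2r the bitter receptors and Tas1r the subunits of the sweet and umami receptors, which signal in taste cells through gustducin (Gnat3), Plcb2 and Trpm5. The liver is not a sensory organ for odours or tastes, although a few receptors, among them Olfr544, have been described in metabolic tissues.

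Liver RNA came from male ApoE KO mice (lacking apolipoprotein E) fed a high-fat diet, with an age of 8 weeks in the labels and livers taken after 8 weeks. The 8 miR-185-inh samples came from mice given lentiviruses that encode an antisense inhibitor of the microRNA miR-185, and the 8 ctrl-inh samples from mice given the control inhibitor, whose sequence the labels do not state. Slide 1 carried the 8 ctrl-inh arrays and slide 2 the 8 miR-185-inh arrays, so slide and treatment cannot be told apart. Each slide held 2 rows of 4 arrays, and the labels do not say that samples were separate preparations beyond their mouse numbers, so each p-value reflects only how much these samples varied.

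A level is log2 of the processed signal minus the array's 75th percentile, so that 0 is the 75th percentile of that array. All levels and differences below are on this log2 scale, and a gene is called where its limma p, adjusted over all features, was under 0.05. Probes differ in how strongly they bind, so a level ranks no gene against another in transcript amount, and fewer cells of a type cannot be told apart from less RNA per cell in whole liver. The 75th percentile of the processed signal ran from 2367 to 3581 units on the ctrl-inh arrays and from 2749 to 3467 on the miR-185-inh arrays. Correlations between arrays over all features tested lay between 0.984 and 0.996. The 7 tested hepatocyte markers had a summed level (log2 of their added signals) of 7.93 to 8.58 in ctrl-inh and 7.91 to 8.38 in miR-185-inh, and 0 of them were called by limma, with 1 at an unadjusted p under 0.05. The level of miR-185 was not analysed here.

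The sequence before the start of 3 receptor genes is shown to let the searched motifs be seen, and the genes were chosen for holding one, after the matches were known. Olfr1 and Olfr1436 were lower in miR-185-inh with groups that did not overlap, and Olfr536 was among the brightest and was not called. Each is the 250 bases upstream of the annotated start, 5′ to 3′ on the gene's strand, from RefSeq on build GRCm38.p6, at chr11:73399496-73399745 (minus strand), chr19:12299131-12299380 (minus strand) and chr7:140507319-140507568 (minus strand). Capitals mark TAATTA, the core bound by homeodomain factors such as Lhx2, and CCCNNGGG, the core of the palindrome bound by Ebf factors, both searched on both strands. No match of one overlapped a match of the other in these windows.
Olfr1: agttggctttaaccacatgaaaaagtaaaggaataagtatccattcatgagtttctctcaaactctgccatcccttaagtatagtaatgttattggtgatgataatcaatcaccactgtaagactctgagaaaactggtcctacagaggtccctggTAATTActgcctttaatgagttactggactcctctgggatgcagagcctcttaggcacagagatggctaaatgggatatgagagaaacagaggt
Olfr1436: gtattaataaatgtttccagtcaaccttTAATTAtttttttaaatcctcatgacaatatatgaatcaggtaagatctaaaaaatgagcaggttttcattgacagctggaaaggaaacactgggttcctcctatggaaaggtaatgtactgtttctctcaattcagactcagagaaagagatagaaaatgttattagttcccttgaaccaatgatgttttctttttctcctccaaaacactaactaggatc
Olfr536: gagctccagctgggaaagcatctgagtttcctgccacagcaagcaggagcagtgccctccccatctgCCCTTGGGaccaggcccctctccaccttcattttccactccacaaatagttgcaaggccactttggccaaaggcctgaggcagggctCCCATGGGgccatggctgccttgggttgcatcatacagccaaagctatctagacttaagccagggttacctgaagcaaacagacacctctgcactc

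Olfr1 and Olfr1436 each held 1 TAATTA, and Olfr536 held 2 CCCNNGGG and no TAATTA. They do not stand for the rest: the windows of Olfr357, Olfr38 and Olfr1354, also lower with no overlap, held neither motif. Among the members, 219 genes with 220 windows were found in the promoter table. TAATTA was in 14.1% of these windows, in 16% of the 1306 receptor windows and in 4.84% of all 32851 windows of that length. Of the 42 windows of members lower in miR-185-inh, 10 (23.8%) held it, against 21 of 178 (11.8%) for members not called. CCCNNGGG was in 3.64% of member windows, 3.75% of receptor windows and 11.8% of all windows, and in 0 of the 42 windows of lower members. These matches are a description of the letters, and the difference between lower and uncalled members was not tested.

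Most receptor genes gave no signal above background in liver. On no array at all were 709 of the 1364 receptor genes (52%) well above background, against 15% of other features. On all 16 arrays 119 receptor genes (8.72%) were detected, against 62.7% of other features. The vomeronasal V1 receptors were detected least often, with 9.04% of Vmn1r genes passing the rule, against 20.2% of Olfr, 18.9% of Vmn2r and 17.1% of Tas2r genes.

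Detection also differed between arrays, over all spots as well as over receptor genes. The share of receptor genes well above background ran from 12.9% to 34.1% on the ctrl-inh arrays (median 22.65%) and from 13.1% to 22.1% on the miR-185-inh arrays (median 16%). The 4 arrays in row 1 of the ctrl-inh slide stood apart, at 24% to 34.1%. The 4 in row 2 of the same slide lay at 12.9% to 21.3%, which overlaps the miR-185-inh arrays. Among all non-control spots, 68.6% to 74.8% were well above background in ctrl-inh row 1 and 58.7% to 64.2% in ctrl-inh row 2. On the miR-185-inh arrays 60.7% to 67.1% of spots were. The level of the negative control probe moved with these shares. It was -8.79 to -8.16 in ctrl-inh row 1 and -7.51 to -7.08 in ctrl-inh row 2. In miR-185-inh it was -8.13 to -7.75 in row 1 and -7.58 to -7.37 in row 2. Its part in the results was not tested.

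**Figure D1:**
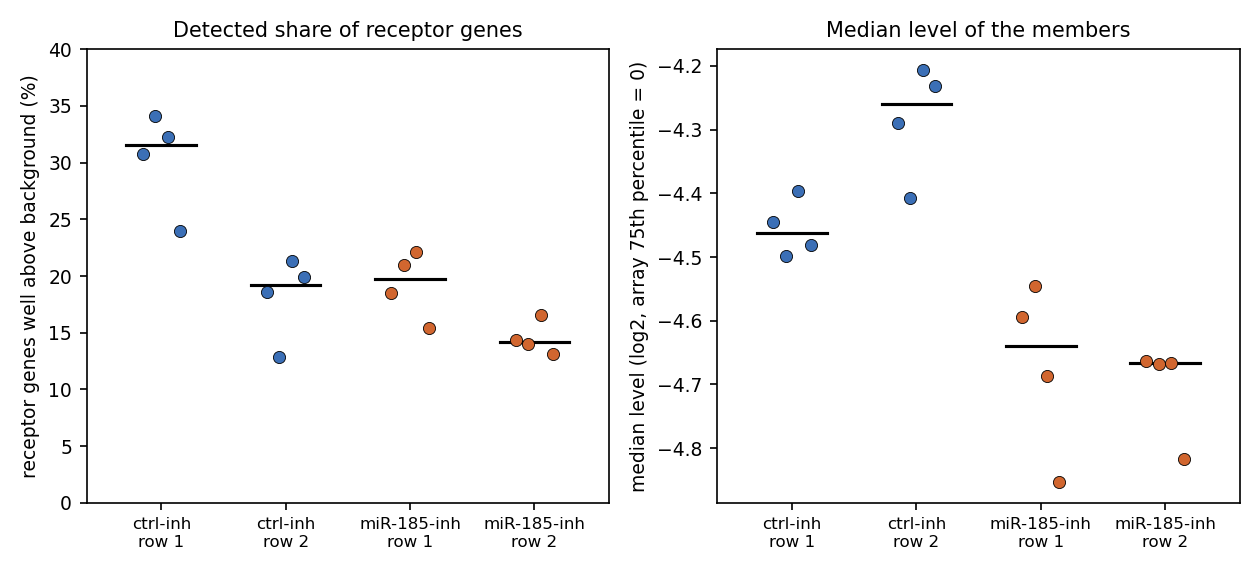
Each point is 1 array, grouped by treatment (ctrl-inh blue, miR-185-inh orange) and slide row, and bars are medians of 4 arrays. Left, percent of 1364 receptor genes well above background; ctrl-inh row 1 is highest, at 24% to 34.1%. Right, median log2 level of the 256 members relative to the array's 75th percentile; the ctrl-inh arrays lie between -4.50 and -4.21 and the miR-185-inh arrays between -4.85 and -4.55.

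The 256 members were lower on the miR-185-inh arrays as a group, except under scaling to spike-in probes, given below. The median member level was -4.50 at the lowest, -4.40 at the median and -4.21 at the highest on the 8 ctrl-inh arrays, and -4.85, -4.67 and -4.55 on the 8 miR-185-inh arrays, so the groups did not overlap for this set. For the 119 members detected on all 16 arrays the array medians did overlap, at -3.59 to -3.23 in ctrl-inh and -3.75 to -3.47 in miR-185-inh, as they did for all 1364 receptor genes, at -7.68 to -7.03 and -7.93 to -7.35. The mean of the 256-member medians was -4.37 ± 0.11 (SD, n = 8) for ctrl-inh and -4.69 ± 0.10 (SD, n = 8) for miR-185-inh. The median over members of the difference, miR-185-inh minus ctrl-inh, was -0.25, against -0.033 over all features tested, and 229 of the 256 (89.5%) lay below zero, against 58% of features. Dim features lay below zero more often. At mean levels from -6 to -2.5, 72.7% of other features did, against 90.2% of the receptor genes there.

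Tested one by one with limma (Benjamini-Hochberg over all 25789 features, threshold 0.05), 45 of the 256 members (17.6%) were lower and 0 were higher in miR-185-inh, while 3.47% of all features were lower and 1.24% higher. At an unadjusted p under 0.05, 109 members and 5219 features passed in either direction, 0 of these members higher. Among the 18 called genes detected on all 16 arrays, the fold ran from 1.24 to 1.75 lower, with a median of 1.35. Of the other 27, 10 were above background on at most 2 of the 8 miR-185-inh arrays, so the size of their fall is uncertain. In 37 of the 45 all 8 miR-185-inh arrays lay below the ctrl-inh mean, and in the other 8 genes 7 arrays did. The groups did not overlap in 11 members, all lower in miR-185-inh, against 0.655% of features lower without overlap, and 10 of these 11 were called. The exception was Olfr373, named here after its values were seen, at a difference of -0.26 and an adjusted p of 0.0537 by limma.

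The detection rule bears on these counts, because a gene can pass it through its ctrl-inh arrays alone. The lowest level marked well above background was -6.56 to -5.98 in ctrl-inh row 1 and -5.30 to -4.84 in ctrl-inh row 2. On the miR-185-inh arrays it was -5.89 to -5.11, and its part in these counts was not tested. In 29 members at least 4 more ctrl-inh than miR-185-inh arrays were well above background, and in 0 members was it the other way round. These 29 had a median difference of -0.72 and held 15 of the 45 lower genes, whereas the 119 members detected on all 16 arrays had a median of -0.20 and held 18. At the edge of the rule, the 26 genes detected on exactly 8 arrays had a median difference of -0.45 and 22 of them were seen on more ctrl-inh arrays, and the 28 genes just outside, at 7 arrays, had a median of -0.50 and 27 were seen on more ctrl-inh arrays. The brightest at 7 arrays were Olfr1344, at a difference of -0.65, and Olfr836, at -1.20.

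Fitted only on features well above background on all 16 arrays, 18 of 119 receptor genes (15.1%) were lower and 0 higher, against 2.44% of features lower, with a median of -0.20 against -0.022 over all features. Without any detection filter, 83 of 1364 receptor genes (6.09%) were lower and 0 higher, against 3.02% of features lower. The median over all 1364 was then -0.018, against -0.029 over all features, and 51.6% of receptor genes lay below zero, against 55.7% of features. The median over all receptor genes, most of them not detected, was thus not below that of all features.

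Set beside other features in the same bins of signal, the detected receptor genes were still further below zero. In 7 bins of mean level, each 0.5 wide and together from -6 to -2.5, 235 receptor genes had a median difference of -0.27 and 18.7% were lower. The 8610 other features of these bins had a median of -0.13 and 7.67% were lower. Pooled over bins, these values are not fully matched on signal. The bin from -5.5 to -5 held 61 of the 235 receptor genes but 1243 of the 8610 others. Bin by bin, the receptor median lay below that of the others in 7 of 7 bins, by 0.053 to 0.30. The shares lower were 12.1% of receptor genes and 10.3% of others from -5 to -4.5, and 27.8% and 9.14% from -6 to -5.5. Among features detected on all 16 arrays, 90 receptor genes in 4 bins had a median of -0.22 with 16.7% lower, against -0.11 and 6.12% for 5280 others. With no filter, 1343 receptor genes in 11 bins from -8 to -2.5 had a median of -0.013, against -0.091 for 18860 others, and 6.18% were lower, against 4.79%. These pooled values are not matched on signal, since the dimmest bin, from -8 to -7.5, held 639 of the receptor genes and 4363 of the others, with medians of 0.21 in both. Bin by bin, the receptor median lay below that of the others in 10 of 11 bins. All of these describe whole bins, with no test.

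**Figure D2:**
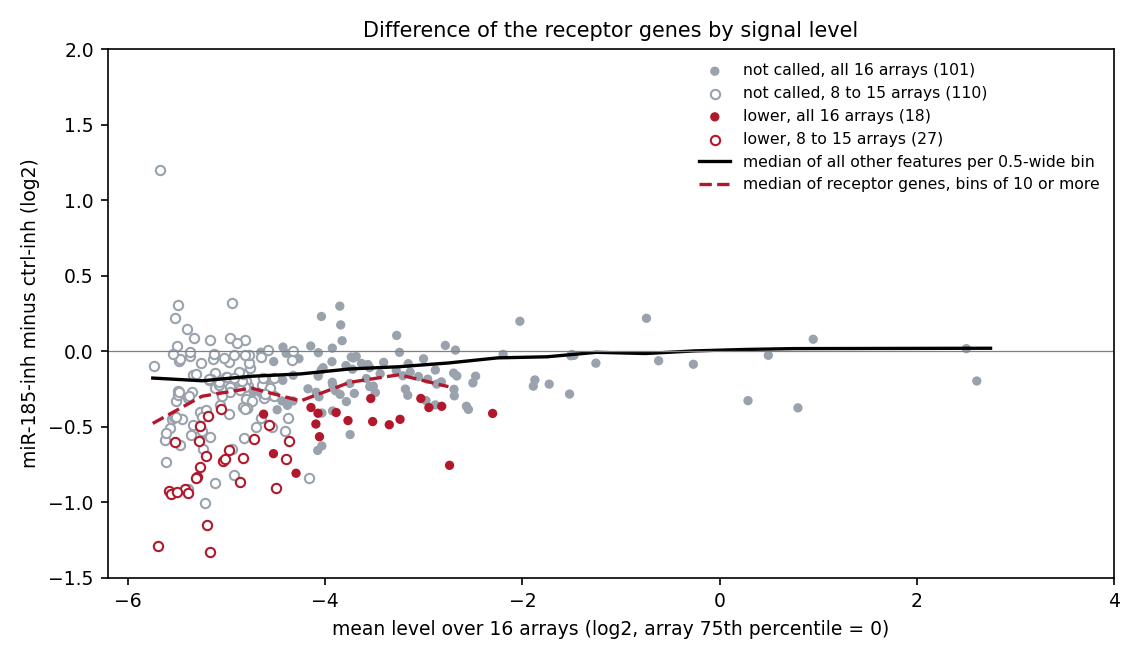
The horizontal axis is the mean level over 16 arrays and the vertical axis the difference miR-185-inh minus ctrl-inh, both in log2, for the 256 receptor genes. Red points are the 45 called lower, filled points were well above background on all 16 arrays, the black line is the median of all other features per bin and the dashed line that of receptor genes. All 45 called genes lie at levels under -2.

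The members with the smallest p were mostly olfactory receptor genes near the detection limit. Olfr357 lay between -4.22 and -3.87 (median -4.04) on the ctrl-inh arrays and between -5.51 and -4.64 (median -4.83) on the miR-185-inh arrays. The groups did not overlap, and 8 of 8 miR-185-inh arrays were below the ctrl-inh mean. The difference was -0.90 ± 0.12 (SE), 1.87-fold lower, with a limma adjusted p of 0.00244 and an exact two-sided permutation p of 0.000155, the smallest that 6435 splits can give. Its signal passed background on 8 arrays of ctrl-inh and 5 of miR-185-inh.

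Olfr38 was at -4.97, -4.67 and -4.50 (lowest, median, highest) in ctrl-inh and at -5.71, -5.53 and -5.00 in miR-185-inh. Olfr1, whose upstream sequence is shown above, was at -4.90, -4.70 and -4.33 against -5.75, -5.34 and -4.91. Neither gene's groups overlapped. Olfr38 differed by -0.73 ± 0.10 (SE), with a limma adjusted p of 0.00244, and Olfr1 by -0.72 ± 0.11 (SE), with 0.00322; in both, 8 of 8 miR-185-inh arrays were below the ctrl-inh mean. Both were detected on 7 arrays of ctrl-inh and 3 of miR-185-inh, so they passed the rule mainly through ctrl-inh. Most of their miR-185-inh values were not above background, and the sizes of these falls are uncertain. Since the rule picked both mainly through the higher group, their p-values and counts of arrays are no separate support.

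Olfr1436, shown above with its upstream TAATTA, lay between -4.63 and -4.22 (median -4.46) in ctrl-inh and between -6.02 and -4.93 (median -5.12) in miR-185-inh, again with no overlap. Olfr1354 lay between -5.15 and -4.77 (median -4.98) against -5.91 to -5.23 (median -5.62), with no overlap. Their differences were -0.87 ± 0.14 and -0.59 ± 0.09 (SE), both with a limma adjusted p of 0.00404 and 8 of 8 miR-185-inh arrays below the ctrl-inh mean. Olfr1436 was 1.82-fold and Olfr1354 1.51-fold lower. Olfr1436 was detected on 8 arrays of ctrl-inh and 5 of miR-185-inh, and Olfr1354 on 6 and 4, so these sizes are uncertain too.

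Only Olfr555 and Olfr467 of the 10 members with the smallest p were well above background on all 16 arrays. Olfr555 was at -2.63, -2.38 and -2.0 (lowest, median, highest) in ctrl-inh and at -3.48, -3.15 and -2.47 in miR-185-inh. A single miR-185-inh array, number 3 at -2.47, lay inside the ctrl-inh range. The difference was -0.76 ± 0.12 (SE), 1.69-fold lower, with a limma adjusted p of 0.00404 and an exact permutation p of 0.000466. Olfr467 ran from -4.20 to -3.72 (median -3.85) in ctrl-inh and from -5.27 to -4.17 (median -4.75) in miR-185-inh, with a narrow overlap. It differed by -0.81 ± 0.13 (SE), with a limma adjusted p of 0.00404, and 8 of 8 miR-185-inh arrays were below the ctrl-inh mean for both genes.

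The other 3 of the 10 passed the rule almost only through ctrl-inh: Olfr1386 was detected on 8 of its arrays and 2 of miR-185-inh, and Olfr365 and Vmn1r192 each on 7 and 1. Most of their miR-185-inh values were not above background, so the sizes below are uncertain. Because the rule picked them through the higher group, their p-values and counts of arrays are no separate support. Olfr1386 lay between -4.90 and -4.39 in ctrl-inh and between -6.45 and -4.65 in miR-185-inh, a difference of -1.15 ± 0.19 (SE) with a limma adjusted p of 0.00409 and 8 of 8 arrays below the ctrl-inh mean. Olfr365, at -0.83 (limma adjusted p = 0.00404), and the vomeronasal receptor gene Vmn1r192, at -0.93 (0.00419), also had 8 of 8 arrays below. The groups overlapped in all 3 genes. Among all members, 4 differed by -1 or less, and 3 of these were called.

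**Figure D3:**
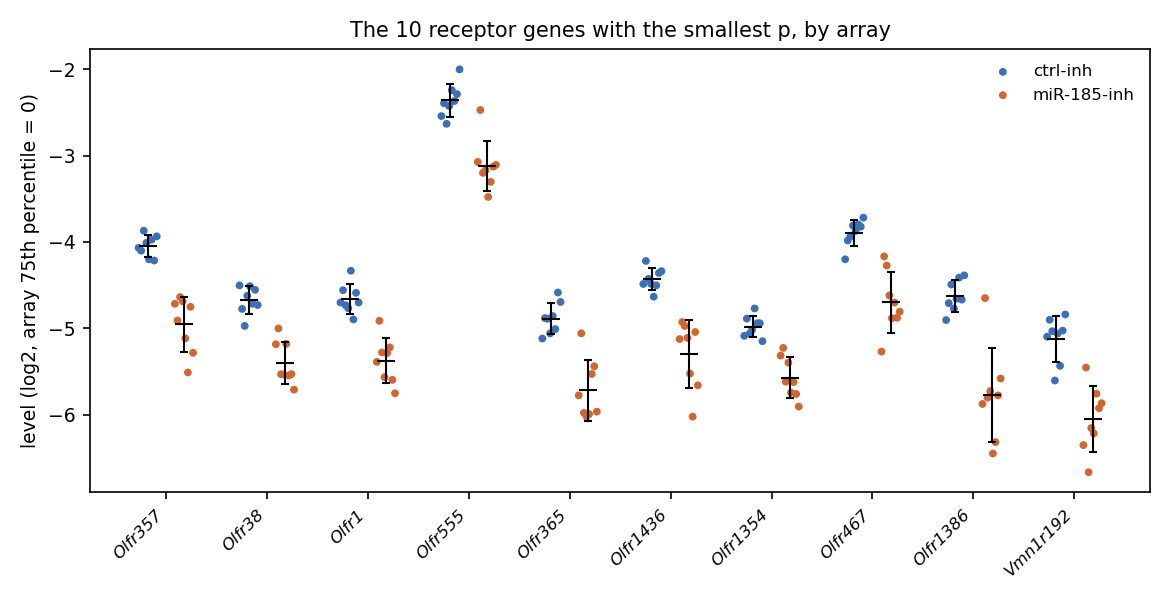
Log2 level on each array, relative to the array's 75th percentile, for the 10 members with the smallest p (ctrl-inh blue, miR-185-inh orange). Black marks are the mean ± SD of 8 arrays. The ctrl-inh points of Olfr357, Olfr38, Olfr1, Olfr1436 and Olfr1354 all lie above their miR-185-inh points.

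The receptor probes with the highest signal are described next. Of the 17 members with a mean level above -2, 0 were called by limma (2 at an unadjusted p under 0.05), their median difference was -0.079 and 14 lay below zero. Other features in the same bins were lower in 0.364% to 2.54% of cases, so 0 of 17 is near the background. Only 6 members lay above the 75th percentile of the arrays: Vmn1r65, Olfr821, Olfr545, Vmn1r81, Olfr536 and Olfr1368. The vomeronasal receptor gene Vmn1r65 ran from 2.35 to 3.07 (median 2.66) in ctrl-inh and from 2.06 to 2.90 (median 2.51) in miR-185-inh. Olfr821 ran from 2.28 to 2.69 (median 2.53) and from 2.29 to 2.85 (median 2.45). Both genes' groups overlapped almost fully, at differences of -0.20 ± 0.12 and 0.018 ± 0.092 (SE) and limma adjusted p-values of 0.38 and 0.941.

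Olfr545 was between 0.010 and 1.30 (median 1.02) in ctrl-inh and between 0.73 and 1.15 (median 1.03) in miR-185-inh, where ctrl-inh 1 gave the lowest value. Olfr536, whose upstream window held the 2 CCCNNGGG, was between 0.045 and 1.01 (median 0.49) and between 0.10 and 1.07 (median 0.37), at a difference of -0.027 ± 0.16 (SE). Vmn1r81 was between 0.80 and 1.21 in ctrl-inh, while in miR-185-inh 2 arrays, numbers 3 and 6, were at -0.63 and -0.51 and the other 6 between 0.70 and 1.46. Olfr1368 differed by -0.33 ± 0.16 (SE; limma adjusted p = 0.254), with 8 of 8 miR-185-inh arrays below the ctrl-inh mean, Olfr1347 by -0.086 ± 0.11 and Olfr282 by -0.063 ± 0.087.

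Among the taste receptors all 8 members lay below zero, against 58% of all features and 72.7% of other features at levels from -6 to -2.5. Of the 8, 1 was called lower, against 3.47% of all features. The bitter receptor gene Tas2r124 ran from -3.82 to -3.54 (median -3.69) in ctrl-inh and from -4.25 to -3.81 (median -4.13) in miR-185-inh, with a narrow overlap, and was detected on all 16 arrays. It differed by -0.41 ± 0.07 (SE), 1.32-fold lower, with a limma adjusted p of 0.00425 and 8 of 8 miR-185-inh arrays below the ctrl-inh mean. The other 5 Tas2r members differed by -0.36 to -0.018 and did not pass. Tas1r3, the subunit that the sweet and umami receptors share, ran from -2.46 to -1.11 (median -1.79) and from -2.40 to -1.66 (median -2.0), and Tas1r1, the umami subunit, from -4.91 to -4.15 (median -4.54) and from -5.08 to -4.37 (median -4.77). The groups of both overlapped widely, at differences of -0.23 ± 0.16 and -0.22 ± 0.12 (SE) and limma adjusted p-values of 0.464 and 0.326.

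Among the vomeronasal receptors 4 of 15 Vmn1r and 2 of 17 Vmn2r members were lower, against 3.47% of all features. Vmn2r80 ran from -3.26 to -2.88 (median -3.13) in ctrl-inh and from -3.92 to -3.27 (median -3.63) in miR-185-inh, with no overlap. It differed by -0.49 ± 0.09 (SE; limma adjusted p = 0.00648; 8 of 8 arrays below the ctrl-inh mean). Vmn2r111, the Vmn2r member with the highest signal, ran from -1.68 to -1.30 and from -1.74 to -1.35, a difference of -0.021 ± 0.074 (SE). The largest value above zero of any member was that of Vmn1r51, at 1.20 ± 0.66 (SE; limma adjusted p = 0.327), named here after its values were seen. Its ctrl-inh arrays spread from -8.68 to -3.82, and only 4 of 8 arrays of each group detected it.

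Of 13 olfactory receptors listed because they have been reported outside the nose and tongue, all were on the array, 6 were members and 0 of these were called by limma, with 1 (Olfr56) at an unadjusted p under 0.05. Olfr544 ran from -1.97 to -1.08 (median -1.42) in ctrl-inh and from -1.95 to -0.92 (median -1.51) in miR-185-inh. Its difference was -0.027 ± 0.14 (SE), with a limma adjusted p of 0.939, and 4 of 8 miR-185-inh arrays were below the ctrl-inh mean. Olfr1393 and Olfr1033, also detected on all 16 arrays, differed by -0.073 ± 0.098 and -0.088 ± 0.096 (SE). Olfr56 differed by -0.19 ± 0.09, Olfr16 by -0.26 ± 0.15 and Olfr2 by 0.31 ± 0.30 (SE). Olfr2 was detected on 8 arrays, 4 of each group. The others were not members: Olfr15, Olfr43, Olfr78, Olfr90, Olfr558 and Olfr734 were well above background on 0 arrays, and Olfr109 on 3, all ctrl-inh.

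**Figure D4:**
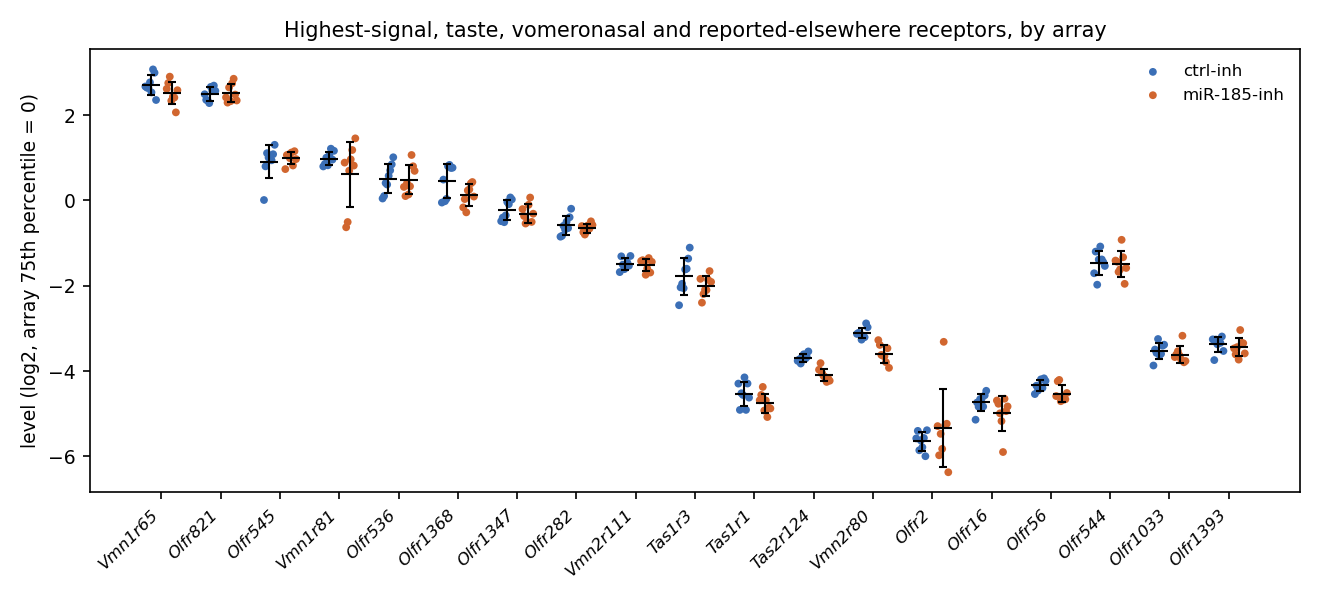
Log2 level on each array, relative to the array's 75th percentile, for the highest-signal members, 5 taste or vomeronasal members and the 6 members reported outside the nose and tongue (ctrl-inh blue, miR-185-inh orange, black marks mean ± SD of 8 arrays). Vmn1r65 and Olfr821 lie above 2 in both groups, and Tas2r124 and Vmn2r80 are lower in miR-185-inh.

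Genes that carry receptor signals were counted beside the shares over all features, 3.47% lower and 1.24% higher. In the olfactory transduction list 14 of 20 genes were tested and 0 were called by limma, 3 had an unadjusted p under 0.05, and the median difference was -0.037. Gnal, the olfactory G protein subunit, differed by 0.024, and Adcy3, its adenylyl cyclase, by -0.36 (adjusted p = 0.114). The 3 of highest level, Gnb1, Arrb2 and Ric8b, differed by 0.026, -0.078 and -0.048. Of 10 tested regulators of olfactory neurons and receptor choice 0 were called by limma, with a median of 0.016, and of 3 tested vomeronasal transduction genes, including Gnai2 and B2m, 0 were called, in both lists with 0 at an unadjusted p under 0.05.

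In the taste transduction list 8 genes were tested and 1 was lower, the channel gene Pkd2l1, at -0.48 ± 0.12 (SE; limma adjusted p = 0.0331). Plcb2 and Trpm5 differed by -0.38 and -0.33 and did not pass, and Gnat3 was well above background on 0 arrays. Among other chemosensory receptors 7 were tested and 1 was lower, the short-chain fatty acid receptor gene Ffar2, at -0.29 ± 0.08 (SE; limma adjusted p = 0.0361).

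Markers of the cells that normally hold these receptors were at low levels. Of 8 olfactory sensory neuron markers 5 were tested and 0 called by limma (2 at an unadjusted p under 0.05), and their summed level was -2.25 to -1.67 in ctrl-inh and -2.45 to -1.80 in miR-185-inh, which overlap. The neuron marker Omp was at -4.42 and -4.83 (means of ctrl-inh and miR-185-inh), with a limma adjusted p of 0.0831. Of 7 tuft and taste cell markers 3 were tested, summing to -2.41 to -2.04 and -2.76 to -2.31, and Gnat3 and Gfi1b were detected on 0 arrays. The kinase gene Dclk1 was lower, at -0.94 ± 0.16 (SE, limma adjusted p = 0.00497). It was detected on 8 arrays of ctrl-inh and 4 of miR-185-inh, so this size is uncertain. Markers of other cell types were also examined. All 9 tested neutrophil markers lay below zero, with a median of -1.01 and a summed level of 2.07 to 3.92 against 0.99 to 3.66. Of them 2 (Ltf and Ngp) were lower, Ltf detected on 8 arrays of ctrl-inh and 3 of miR-185-inh. The 7 tested pancreatic acinar genes went both ways, 4 below and 3 above zero: Cel was lower (-0.48), while Cela2a, at 0.61, and Amy2a5, at 0.21, did not pass, and 6 of the 7 had an unadjusted p under 0.05. In the testis germ cell list 1 of 3, Prm1, was lower (-0.58), detected on 8 arrays of ctrl-inh and 4 of miR-185-inh. In the Kupffer cell, cholangiocyte, erythroid and neuron lists limma called 0 genes, with 1 (neuron list) at an unadjusted p under 0.05. The part of any cell type in the receptor result was not tested.

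Members varied together between arrays of the same treatment. Over the 119 members detected on all 16 arrays, the median correlation between pairs of genes, after removing group means, was 0.263 (7021 pairs, quartiles 0.026 and 0.462). This describes genes that share arrays and scaling. No such value is given for other features, so it is not shown to be particular to receptor genes. The median SD within a group was 0.29 over members and 0.24 over those detected on all 16 arrays, against 0.21 over all features. In the 4 genes with 2 probes that passed, Olfr1036, Olfr1052, Olfr32 and Olfr705, both probes lay below zero, with a median gap of 0.087 between them. Each member was also paired with the next member on its chromosome, with other genes allowed between them, so paired genes need not be neighbours. Of these 240 pairs, 5 had both genes lower. This count was not compared with the count expected if lower genes were spread at random, and was not tested.

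The treatment comparison was repeated within each slide row. Row 2 arrays alone gave 26 lower members (10.2%) and 0 higher, against 1.31% of features lower, with a median of -0.38 against -0.070 over all features. Row 1 arrays alone gave 0 called members and 0 called features by limma, with 53 members and 4609 features at an unadjusted p under 0.05, and a member median of -0.14 against 0.0070. All 45 genes called over 16 arrays were below zero in both rows, and 40 of them fell further in row 2. They were picked on these same arrays, so their sign within rows is no separate support. Over all 256 members, 175 were below zero in both rows. In 211 members (82.4%) the difference was lower in row 2 than in row 1, against 66.2% of features. The interaction of treatment and row passed in 0 members, against 0.372% of features, with 25 members and 3823 features at an unadjusted p under 0.05.

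Rows were also compared where treatment did not differ. Row 2 against row 1 of the ctrl-inh slide gave 12 called members (4.69%), against 4.65% of features in either direction. That pooled share was near the background in this fit, though not with no filter or under normexp, given below. The direction differed from the background. Of the 12 members, 11 were higher and 1 lower in row 2, while called features were more often lower than higher. The member median was 0.19, against 0.090 over all features, and 17.2% of members lay below zero, against 32.8% of features. Members thus also shifted as a group between rows of the same treatment. Within the miR-185-inh slide 0 members were called, against 0% of features, with 18 members and 3000 features at an unadjusted p under 0.05, and a member median of -0.038.

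Probes for an RNA added from outside the mouse also differed between the slides. The array carries 10 probes for E1A, an exogenous spike-in RNA, and 8 of them were well above background on at least 8 arrays. Of the 2 not counted, the probe detected on 7 arrays was as dim as many members, at -5.49 in ctrl-inh and -5.92 in miR-185-inh. It differed by -0.43 (-0.13 in row 1, -0.74 in row 2), and the probe detected on 0 arrays by 0.097. All 8 counted probes were lower on the miR-185-inh slide, by 0.14 to 0.38, with a median difference of -0.24, although the groups overlapped in each. Their median difference was -0.068 in row 1 and -0.41 in row 2. When arrays were scaled to these probes, an alternative chosen after the data were seen, the member median was 0.0023 and that of other features 0.22, a shift of all features, so receptor genes stayed 0.22 below the others, as under the 75th percentile. Under it 16 members were lower and 0 higher, with 139 features lower and 2202 higher, in place of 894 and 320. Of the 12 called genes named above, Olfr1354, Tas2r124 and Vmn2r80 then missed the threshold, at limma adjusted p-values of 0.0509, 0.21 and 0.0701, and all 12 missed it with row 1 alone. Under quantile normalization the split of features was 467 lower and 396 higher and 19 members were lower, and under normexp it was 602 and 549, with 26.

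**Figure D5:**
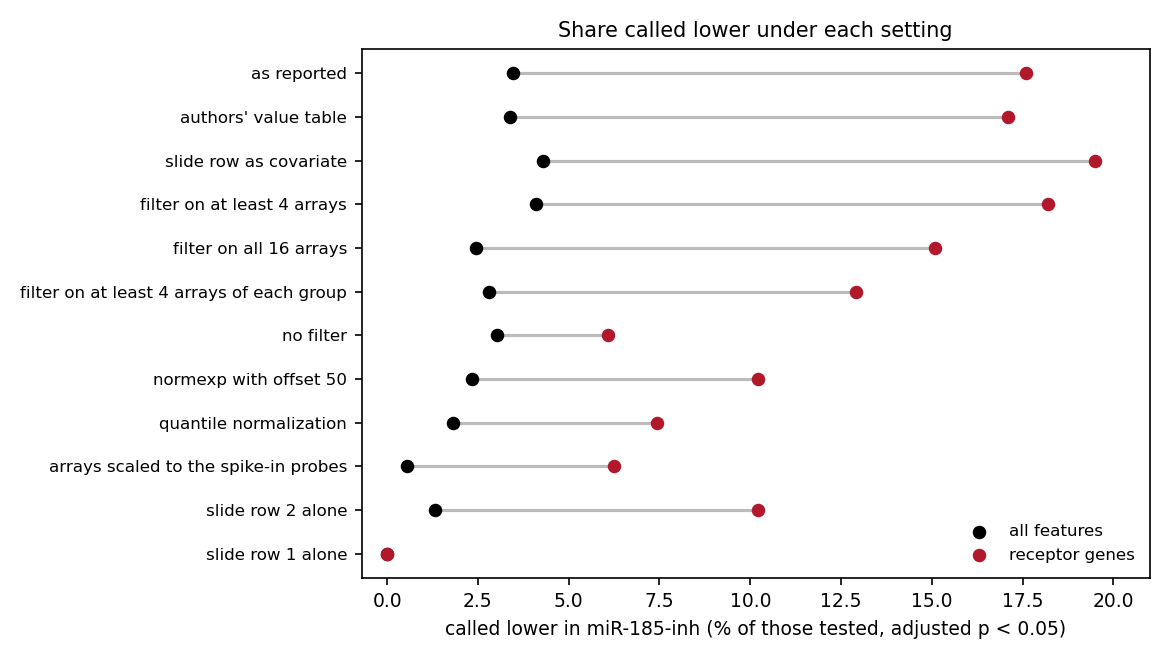
Percent called lower in miR-185-inh (limma, adjusted p under 0.05) among receptor genes (red) and among all features tested (black), under the reported setting and 11 others. The receptor share is above the feature share in each setting drawn except row 1 alone, where both are 0; with no filter they are 6.09% and 3.02%.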

How the data were processed

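The deposited scanner files hold one intensity per spot, a processed signal background-subtracted by Agilent Feature Extraction 11.5.1.1 per the file headers (9.1 per the submitters' processing notes). The authors' deposited value table is on a log2 scale and equals log2 of that signal minus a constant of unstated origin per array, with column medians of -1.30 to -1.22. Of 55681 probes 26762 were named by RefSeq accession (GRCm38, for names; the array grid is on mm9). Outlier spots were left out, spots of a probe averaged and the brightest passing probe taken per gene. The treatment test was limma 3.58.1 under R 4.3.3 (lmFit, eBayes, 2-sided), and single genes also had an exact permutation test. Limma was checked on simulated data with independent noise per feature and no slide or row effect, so that check cannot cover such effects. The number of arrays limits the precision. Genes named were the 10 members of smallest p, the 8 brightest detected on all arrays, the brightest and smallest-p gene per prefix, and 13 receptors reported elsewhere. Members, lists and tests were chosen with earlier results of these data known. Probe sequences were not used here, so binding by near-identical receptor copies was not tested.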

Additional observations from a re-analysis of the deposited data

Results flagged for a closer look

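Of 66 groups of 8 values examined, 58 held the levels of the 29 named genes and 8 held medians and detected shares by array. In 5 of the 66, 1 array lay far from the other 7 by Dixon's criterion, which chance meets in about 1 of 20 groups. Olfr545 was at 0.010 on ctrl-inh 1, with the next value at 0.80. Olfr555 was at -2.47 on miR-185-inh 3, the next at -3.07, so the overlap of its groups rests on that array. On miR-185-inh 8, Olfr2 was at -3.31 (next -5.23) and Olfr16 at -5.90 (next -5.17). Olfr1033 was at -3.17 on miR-185-inh 9, the next at -3.54.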

How the results depend on the processing

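The count of 45 lower members (17.6%, against 3.47% of features) changed with the setting. It became 26 (10.2% against 2.33%) under normexp and 19 (7.42% against 1.81%) under quantile normalization. With detection on all 16 arrays it was 18 of 119 (15.1% against 2.44%). With at least 4 arrays of each group it was 28 of 217 (12.9% against 2.8%). It was 83 of 1364 with no filter (6.09% against 3.02%) and 0 in row 1 (0% against 0%). Row 2 gave 26 (10.2% against 1.31%) and spike-in scaling 16 (6.25% against 0.539%). The median of -0.25 became -0.11 under normexp, -0.11 under quantile normalization, -0.018 with no filter, -0.38 in row 2 and 0.0023 under spike-in scaling. The row count of 12 in ctrl-inh, beside 1199 of 25789 features, became 6 under quantile normalization, beside 1082. With no filter it was 504 of 1364, beside 5953 of 37147 features, and under normexp 52, beside 2864. With no filter and under normexp, members were thus called more often than features. Leaving out 1 array gave 30 to 53 lower members (11.7% to 20.7%, against 2.12% to 4.33% of features). The fewest came without ctrl-inh 11, and the medians were -0.27 to -0.21. No setting gave a higher member. Mouse numbers shared by both groups (5) did not pair the arrays (correlations -0.128 to 0.107). With the replicate block limma called 0 members and 0 features (72 and 2597 at an unadjusted p under 0.05). The same arrays with no block also gave 0 and 0 (74 and 2875). The 12 called genes named stayed below zero under all 14 other settings run on single genes; all 12 lost their call in row 1 and with the 5 shared numbers, 3 under spike-in scaling, and Olfr1368 gained one in row 2. The causes were not tested. Dim signal limits these results: 709 of 1364 receptor genes were never detected.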

Other observations

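Other families best known from other tissues, picked after values were seen, also had medians below that of all features (-0.033). The keratin-associated (Krtap) genes had -0.16 over 24 tested and the keratins (Krt) -0.18 over 32, and on all 16 arrays -0.15 and -0.18. The beta-defensins (Defb) had -0.15 over 15 and the Rhox homeobox genes -0.23 over 9, but only -0.056 and -0.047 over the 4 and 7 detected on all 16 arrays. At the median Defb level of -4.92, other features of the same bin had a median of -0.17, so the Defb value was no lower than theirs. In the bin of the median Krtap and Krt levels (-3.08 and -3.05) other features had -0.10, and in that of Rhox (-4.00) -0.15. Part of each distance from -0.033 is thus shared with other features of that signal. The Slc transporter genes had a median of -0.006 over 289. By limma 3 Krtap, 4 Krt, 0 Defb, 0 Rhox and 9 Slc genes were lower and 1 Krtap and 3 Slc genes higher, against 3.47% of all features lower and 1.24% higher.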
